A study of Homo sapiens with 6 samples.

Results

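The 10 genes described here set the balance between the epithelial and the mesenchymal state of a cell: the repressors ZEB1, ZEB2, SNAI1, SNAI2 and TWIST1, and the epithelial regulators GRHL2, OVOL1, OVOL2, ELF3 and ESRP1. They were followed through 14 of the 22215 probe sets tested, which are all probe sets that the array's annotation assigns to 1 of these genes alone, and all 10 genes, of 11963 genes in all, were measured. Expression was profiled on 6 arrays, 3 of parental NCI-H1975 cells and 3 of WZR6 cells. The NCI-H1975 line was derived from a human lung adenocarcinoma and carries mutant EGFR. WZR6 is clone #6 of this line, isolated after exposure to rising concentrations of WZ4002, an inhibitor of mutant EGFR kinase, and the labels call it resistant and the parental cells sensitive to that drug. Both groups grew in RPMI with 5% FBS and were harvested in exponential growth. The series names ERK signaling as a cause of resistance to EGFR inhibitors. Because WZR6 is 1 clone, a difference of the clone and a difference of resistant cells cannot be told apart. The labels do not say whether the 3 samples of a group came from separate cultures, so the p-values measure the spread between these samples, which may be technical.

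ZEB, SNAI and TWIST proteins are transcription factors that bind E-box sequences in DNA, and the first 2 families shut off epithelial genes such as CDH1, which encodes E-cadherin. GRHL2 and the OVOL factors act in the opposite sense: they keep epithelial genes on or restrain ZEB expression, and ZEB1 in turn represses GRHL2, so that the circuit tends to settle in 1 of its states. ELF3 is an epithelium-specific ETS factor, and ESRP1 is an RNA-binding protein that directs epithelial splicing of many transcripts.

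Values are log2 of the intensity the authors obtained with RMA, and n = 3 arrays per group throughout. A probe set was called when limma's moderated test gave a Benjamini-Hochberg adjusted p under 0.05 over all probe sets. The table has no detection calls, so the lower quartile of all log2 values, 5.27, serves as a guide to dim signal. Array medians lay between 163 and 171 in linear intensity, and log2 values correlated across probe sets with r of 0.9978 to 0.9983 within a group and 0.9815 to 0.9826 between groups. No value is compared between probe sets as a level, since probe sets differ in brightness.

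The repressors ZEB1, ZEB2 and SNAI2 were higher in WZR6, and GRHL2, OVOL2 (on 1 of its 2 probe sets), ELF3 and ESRP1 were lower, while SNAI1, TWIST1 and OVOL1 did not pass the test. Counted over probe sets, 5 of 14 rose, 5 fell and 4 were not called. Over all probe sets 41.1% were called, 21.6% higher and 19.5% lower, so a call alone is common in this comparison. A decrease of at least 2-fold was called for 3 of the 14, against 2.65% of all probe sets, and an increase of at least 2-fold for 2, against 1.14%. The groups did not overlap for 11 of 14, against 51.1% of all probe sets. In bulk RNA, fewer cells that express a gene and less of its RNA per cell cannot be told apart.

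**Figure D1:**
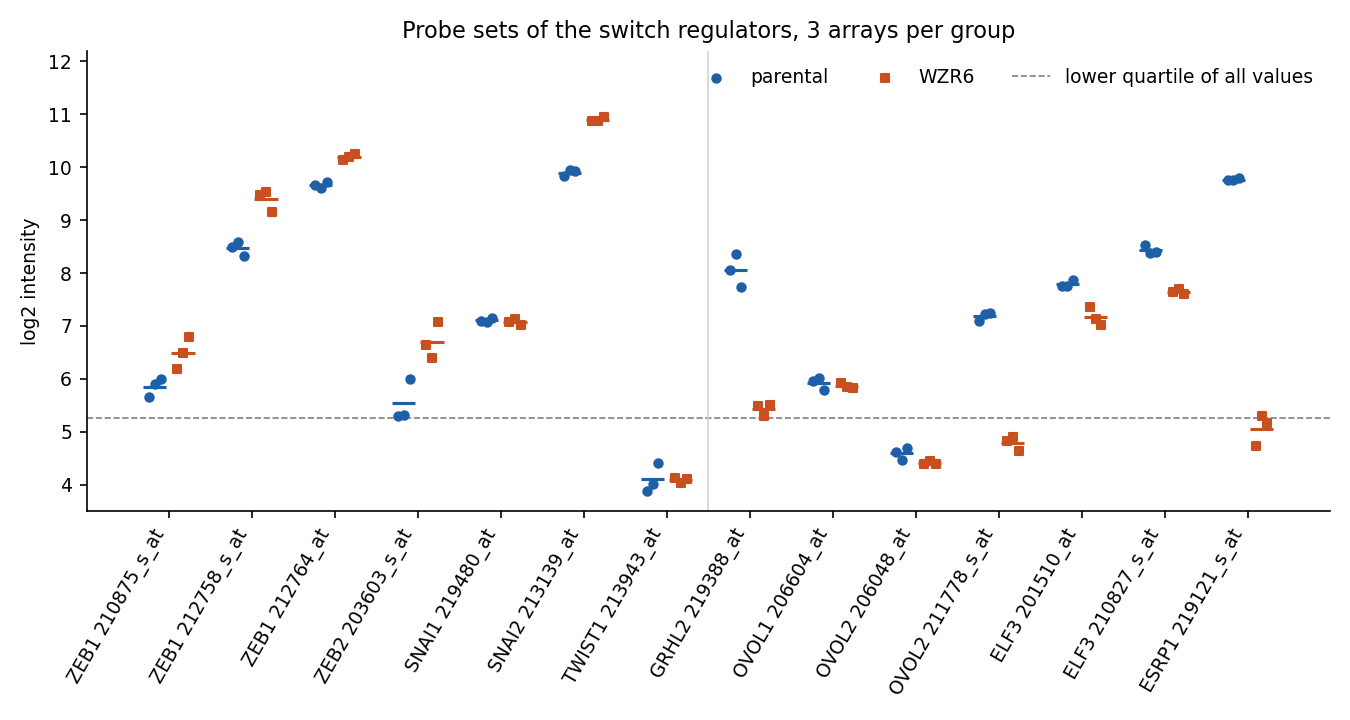
Log2 intensity of the 14 probe sets in each array: circles are the 3 parental arrays, squares the 3 WZR6 arrays, short bars the group means, and the dashed line the lower quartile of all values, 5.27. ESRP1, GRHL2 and one OVOL2 probe set drop toward or below that line in WZR6, and SNAI2 and ZEB1 rise well above it.

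ZEB1, a zinc finger and homeodomain repressor, rose on all 3 of its probe sets. On 212764_at, its brightest, the parental arrays read 9.67, 9.61 and 9.72 and the WZR6 arrays 10.14, 10.19 and 10.24. Each WZR6 array lay above each parental array, and the difference was 0.52 ± 0.05 (SE, 95% interval 0.40 to 0.65, limma adjusted p = 0.000268), or 1.44-fold. On 212758_s_at the values were 8.48, 8.58 and 8.33 in parental cells and 9.47, 9.54 and 9.16 in WZR6, a difference of 0.93 ± 0.11 (SE, limma adjusted p = 0.000629). The dimmer 210875_s_at read 5.66, 5.90 and 6.01 against 6.19, 6.49 and 6.80, a difference of 0.64 ± 0.16 (SE, limma adjusted p = 0.0163). The arrays numbered 3 were the highest of both groups on that probe set and the lowest of both groups on 212758_s_at, so the 2 did not vary together within groups. The call of 210875_s_at was lost without parental replicate 1 (difference 0.54, limma adjusted p = 0.0560). It was also lost with a floor, in which each value below the median of all log2 values, 7.38, was set to that median.

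ZEB2, the paralogue of ZEB1, had the larger estimated rise, which the test below did not separate from that of ZEB1, and the larger spread. Its single probe set read 5.30, 5.31 and 5.99 in parental cells and 6.64, 6.40 and 7.08 in WZR6. The groups did not overlap, with a gap from 5.99 to 6.40, and the arrays numbered 3 were the highest of each group. The difference was 1.17 ± 0.24 (SE, 95% interval 0.61 to 1.73, limma adjusted p = 0.00627), or 2.25-fold (1.53 to 3.31). Both group means lay below the median of all values, 7.38, and a floor there leaves no difference. On the brightest probe sets the difference of ZEB2 exceeded that of ZEB1 by 0.65, and with the mean of each gene's probe sets by 0.47. An exact two-sided permutation test did not separate the former from 0 (p = 0.2, and 0.2 adjusted over 3 pairs). The smallest p that 3 against 3 arrays allow is 0.1. With the floor, under which ZEB2 has no difference, the comparison turned to -0.52.

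SNAI2, also named Slug, was the clearest increase among the repressors. It read 9.83, 9.94 and 9.93 in parental cells and 10.87, 10.88 and 10.94 in WZR6. Every WZR6 array lay far above every parental array, and the groups stood 1.00 ± 0.05 (SE) apart, a 2.00-fold rise (95% interval 1.83 to 2.18, limma adjusted p = 1.62e-05). SNAI1, or Snail, read 7.09, 7.07 and 7.15 against 7.08, 7.14 and 7.02, with a difference of -0.02 ± 0.05 (SE, limma adjusted p = 0.769). The interval of SNAI1, -0.15 to 0.10, does not reach a rise of the size seen for SNAI2. The difference of SNAI2 exceeded that of SNAI1 by 1.02, and the exact permutation p was 0.1, the smallest possible here (adjusted over 3 pairs, 0.15).

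TWIST1, a basic helix-loop-helix factor, gave no signal above the dim range. Its probe set read 3.88, 4.02 and 4.41 in parental cells and 4.14, 4.03 and 4.12 in WZR6, all below the lower quartile. The difference was -0.01 ± 0.13 (SE, 95% interval -0.31 to 0.30, limma adjusted p = 0.975). A change in TWIST1 at levels the array does not resolve would not be seen.

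**Figure D2:**
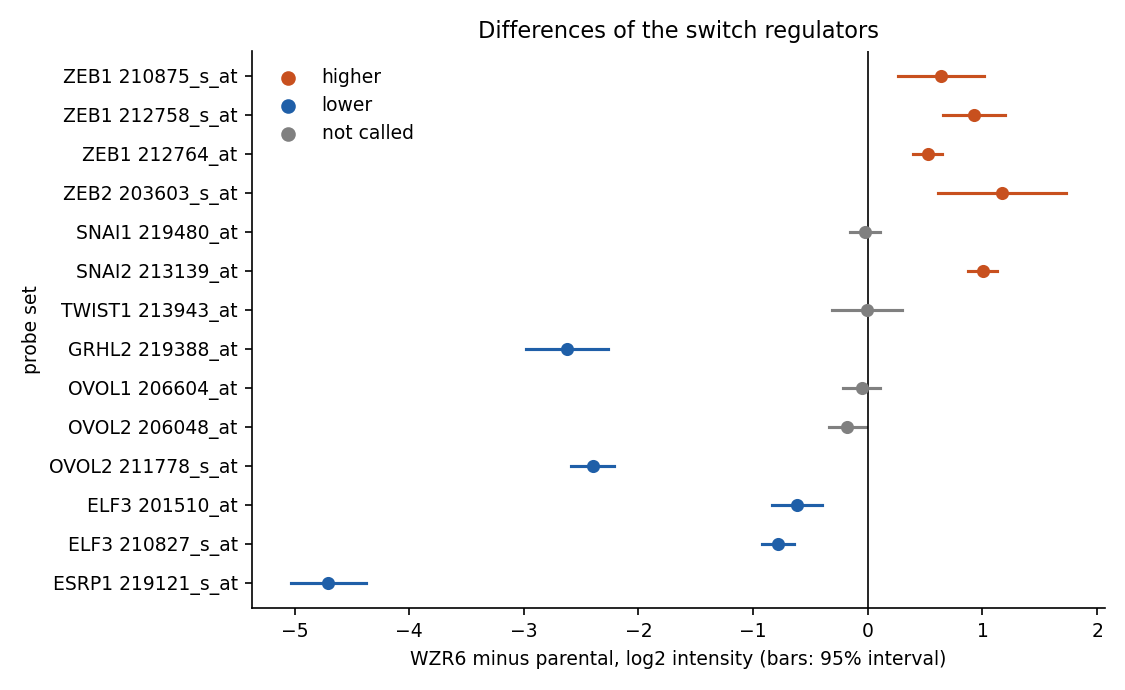
Difference of WZR6 from parental cells in log2 intensity for each of the 14 probe sets, with 95% intervals of the limma fit; orange is called higher, blue called lower and grey not called. The 3 ZEB1 probe sets, ZEB2 and SNAI2 lie between 0.52 and 1.17, and ESRP1 lies at -4.70.

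Among the epithelial regulators ESRP1 had the largest decrease. Its probe set read 9.76, 9.75 and 9.79 in parental cells and 4.73, 5.30 and 5.16 in WZR6. The parental arrays were nearly alike, and the WZR6 mean, 5.06 ± 0.30 (SD), fell below the lower quartile. The difference was -4.70 ± 0.14 (SE), a 26.1-fold decrease (95% interval 20.8 to 32.7, limma adjusted p = 1.28e-06), whose size the dim WZR6 signal limits. With the floor at the median of all values it was -2.39. Of the 22215 probe sets, 8 had a larger decrease.

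GRHL2, a grainyhead factor that activates epithelial junction genes, read 8.06, 8.36 and 7.74 in parental cells and 5.48, 5.30 and 5.51 in WZR6. The lowest parental array stood well above the highest WZR6 array. The difference was -2.63 ± 0.15 (SE), a 6.17-fold decrease (95% interval 4.82 to 7.90, limma adjusted p = 2.15e-05). With the floor it was -0.68 and still called (limma adjusted p = 0.0468).

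OVOL2, a zinc finger repressor of ZEB1, showed its decrease on 1 of its 2 probe sets. On 211778_s_at the parental arrays read 7.09, 7.22 and 7.25 and the WZR6 arrays 4.82, 4.89 and 4.64, a 5.28-fold decrease (95% interval 4.62 to 6.03, limma adjusted p = 2.23e-06). On 206048_at the values were 4.62, 4.47 and 4.70 against 4.39, 4.46 and 4.40, all below the lower quartile. That probe set had groups that barely separated, a difference of -0.18 ± 0.07 (SE) and no call (limma adjusted p = 0.0741; 0.0216 without parental replicate 2). OVOL2 is therefore uncertain: the brighter probe set fell, the dimmer one was not called, and the means of both lay below the median of all values in both groups, so that the floor leaves no difference.

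OVOL1, the paralogue of OVOL2, read 5.95, 6.01 and 5.79 in parental cells and 5.92, 5.84 and 5.84 in WZR6. The groups overlapped, and the difference was -0.05 ± 0.07 (SE, 95% interval -0.22 to 0.11, limma adjusted p = 0.597). The difference of OVOL2 minus that of OVOL1 was -2.35 on the brightest probe sets and -1.24 with the mean of each gene's probe sets, and the floor leaves a difference of 0. On the brightest probe sets the test gave an exact permutation p of 0.1 (adjusted over 3 pairs, 0.15).

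ELF3 fell on both of its probe sets, by less than 2-fold. On 210827_s_at it read 8.53, 8.38 and 8.39 in parental cells and 7.64, 7.69 and 7.60 in WZR6, a difference of -0.79 ± 0.06 (SE, 95% interval -0.93 to -0.65, limma adjusted p = 6.70e-05), or 1.72-fold. On 201510_at it read 7.75, 7.76 and 7.86 against 7.36, 7.13 and 7.02, a difference of -0.62 ± 0.09 (SE, limma adjusted p = 0.00154). Both probe sets placed every WZR6 array below every parental array. Unlike ESRP1 and OVOL2, ELF3 stayed above the lower quartile in WZR6.

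The stretch of 250 bases before the start of ELF3 is shown because it carries the E-box CACCTG, the letters that ZEB and SNAI factors bind (RefSeq, GRCh38.p14, chr1:202010337-202010586, plus strand, 5′ to 3′, with the match in capitals). The match begins 120 bases before the start. For comparison, start 3 of the 7 RefSeq starts of ZEB1 has 2 matches, CACCTG and its reverse complement CAGGTG, 242 and 85 bases before it (chr10:31318966-31319215, plus strand). Among members, RefSeq promoter stretches of ELF3, ZEB1 and ZEB2 were used, 9 in all, and 3 of these held the E-box: that of ELF3 and 2 of ZEB1. A match describes letters and not a bound site.

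ELF3: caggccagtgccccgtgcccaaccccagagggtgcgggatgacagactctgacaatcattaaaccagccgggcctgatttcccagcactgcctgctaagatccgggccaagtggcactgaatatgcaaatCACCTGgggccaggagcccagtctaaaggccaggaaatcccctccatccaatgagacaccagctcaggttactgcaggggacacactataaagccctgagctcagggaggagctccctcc
ZEB1, start 3: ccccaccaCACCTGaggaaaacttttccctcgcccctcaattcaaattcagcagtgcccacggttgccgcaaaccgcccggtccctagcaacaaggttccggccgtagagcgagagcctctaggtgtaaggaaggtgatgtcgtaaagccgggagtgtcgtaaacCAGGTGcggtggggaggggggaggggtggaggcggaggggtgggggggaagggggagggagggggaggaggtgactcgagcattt

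The genes around these regulators were described through lists in a fit over 11963 genes, each represented by its brightest own probe set. In that fit 48.0% were called, 24.5% higher and 23.5% lower, and the median difference was 0.02. The lists were chosen with earlier results of these data known, so their counts beside these shares are a description and not a test. Genes linked to GRHL2, which include its junction, protease and vesicle targets, fell for 12 of 12 measured, with a median difference of -2.18. Of these, 11 fell at least 2-fold, as did 3.42% of all genes. TMEM30B, a subunit of lipid flippases, differed by -5.42, the protease inhibitor SPINT2 by -3.27, the recycling GTPase RAB25 by -3.03 and the receptor ERBB3 by -2.96. TMEM30B and RAB25 averaged 4.06 and 4.94 in WZR6, in the dim range, and with the floor they differed by -2.10 and -0.59, both still called. The call of ERBB3 was lost with the floor (-0.21, limma adjusted p = 0.453) and on its other probe set (-0.12).

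Epithelial genes known to be repressed by ZEB and SNAI factors fell for 12 of 16 measured, 1 rose and 3 were not called, with a median of -0.91. Of the 3, PATJ and PKP2 each had another probe set called lower (-0.63 and -1.25). With the mean of each gene's probe sets, 14 fell and 1 rose. Decreases of at least 2-fold numbered 7, against the same 3.42% of all genes. EPCAM, an adhesion molecule, differed by -6.26, CDH1 by -5.69, CDH3, which encodes P-cadherin, by -4.15 and the tight junction protein CLDN7 by -2.78. The other probe set of CDH1 differed by -1.04 and the mean of both by -3.36. The gene that rose, named after its value was seen, was CLDN1, at 0.27 with a limma adjusted p of 0.0447 over genes; it was not called over probe sets. Its call was lost without parental replicate 1, parental replicate 2, WZR6 replicate 1 or WZR6 replicate 2, which leaves 0 genes higher each time. KRT18, a keratin of simple epithelia, differed by -0.12 and was not called (limma adjusted p = 0.0732).

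**Figure D3:**
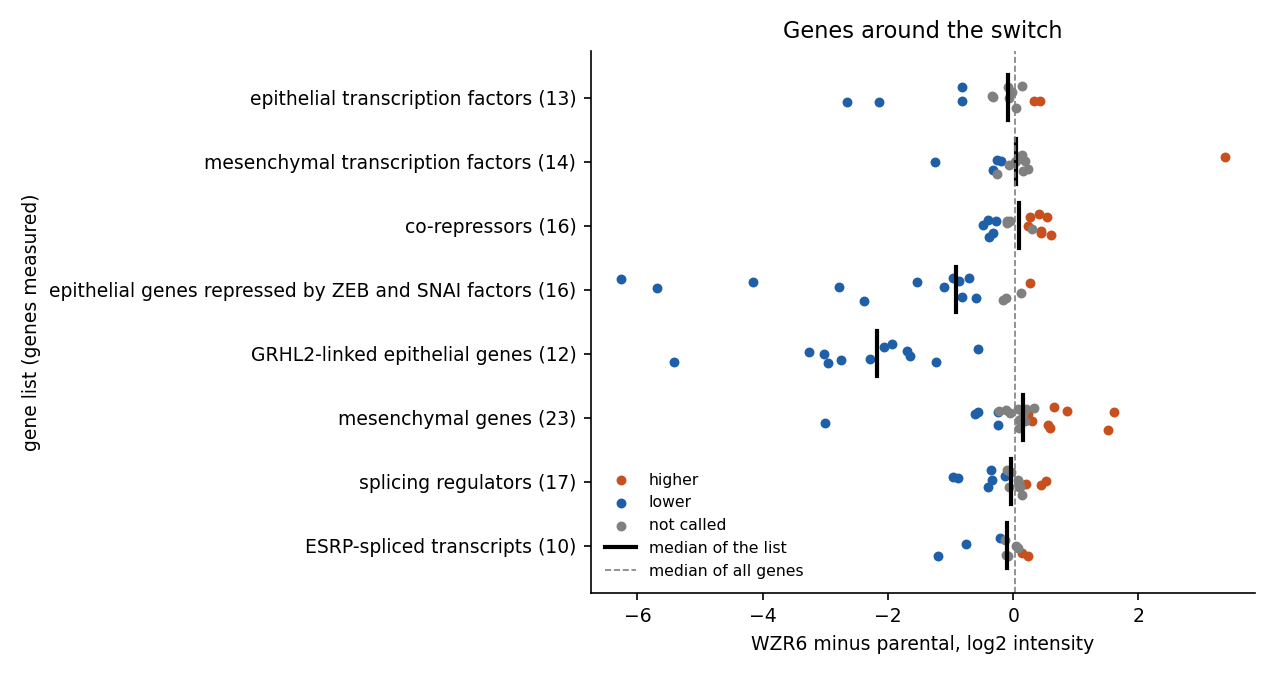
Difference of WZR6 from parental cells in log2 intensity for each measured gene of 8 lists; orange is called higher, blue called lower, grey not called, the black bar is the list's median and the dashed line the median of all genes, 0.02. The GRHL2-linked list has its median at -2.18 and the mesenchymal list at 0.15.

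Mesenchymal genes, by contrast, did not move one way: 8 of 23 rose, 5 fell and 10 were not called, with a median of 0.15. ACTA2 and TAGLN, both contractile proteins, rose by 1.61 and 1.51, and the matrix protein SPARC by 0.86. The other probe set of ACTA2 differed by 0.16 and was not called, and the mean of both differed by 0.88. COL1A1, a collagen chain, fell by 3.00 on its brightest probe set, but its 4 probe sets ran from that decrease to a difference of 0.08, and 2 of them were called lower. The matrix protein FN1 fell by 0.61, with all 6 of its probe sets called lower. The intermediate filament VIM differed by 0.08 (limma adjusted p = 0.167) and the N-cadherin gene CDH2 by 0.15 (limma adjusted p = 0.344). VIM was already bright in parental cells (14.74, and 14.82 in WZR6), and CDH2 lay below the median of all values in both groups (5.76 and 5.91).

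Of the markers of other cell types, most were not called. Of 8 fibroblast markers PDGFRB rose and COL1A1 fell, and their summed linear intensity went from 1024 to 1135 in parental arrays to 464 to 468 in WZR6. Of 6 endothelial markers CDH5 rose (sums 289.6 to 317 and 318 to 332), and of 5 leukocyte markers CD14 fell (479 to 549.5 and 319.9 to 362). Each of these sums is weighted to its brightest probe sets. COL1A1, whose probe sets disagree, averaged 9.60 in parental cells and 6.60 in WZR6, and CD14 averaged 8.45 and 7.49. The pan-leukocyte gene PTPRC lay below the lower quartile in both groups, as did 9 of these 19 markers. Their part in the results above was not tested. Of 7 measured markers of lung adenocarcinoma, 4 fell (NKX2-1, KRT7, KRT8 and KRT19) and 0 rose, and their sums went from 35724 to 37125 in parental arrays to 26331 to 27051 in WZR6. None of these 7 lay below the lower quartile in both groups, and KRT18 averaged 14.14 in parental cells and 14.02 in WZR6.

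Other transcription factors of the 2 states were mixed. Of 13 epithelial factors 4 fell, 2 rose and 7 were not called (median -0.09). FOXA2 and NKX2-1, factors of lung lineage, differed by -2.66 and -2.14, and KLF5 and the ETS factor EHF both by -0.82, the latter below the lower quartile in both groups and lost with the floor. Probe sets disagreed in size: those of FOXA2 ran from -2.66 to -0.17, with 2 of 3 called, and those of NKX2-1 from -2.14 to -0.19, with 1 of 2 called. With the floor FOXA2 differed by -0.79 and NKX2-1 by -1.20, and with the mean of their probe sets by -1.53 and -1.17, all called. Without parental replicate 3 the count of decreases rose to 7. Of 14 further factors linked to the mesenchymal state, 1 rose, 4 fell and 9 were not called (median 0.04). MEOX1, a homeobox factor, rose by 3.37, while the chromatin protein HMGA2 fell by 1.25, SOX4 by 0.33 (2 of 5 probe sets called; their mean fell by 0.18) and KLF8 by 0.27. The call of KLF8, a dim probe set, was lost under several alternatives, and the fourth decrease, TCF3, is uncertain because its 13 probe sets ran from -0.35 to 0.43 with calls both ways. Without parental replicate 1 or WZR6 replicate 3 the decreases numbered 2. The increases numbered 3 without parental replicate 2 and 2 without WZR6 replicate 3.

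ZEB and SNAI factors repress through co-repressor complexes, and transcripts of these complexes changed little in size. Of 16 measured, 7 rose, 5 fell and 4 were not called, none by 2-fold (median 0.09). The demethylase KDM1A rose by 0.60 and the deacetylases HDAC2 and HDAC1 by 0.54 and 0.45, while EZH2, the methyltransferase of polycomb complex 2, fell by 0.49. Of the CtBP co-repressors that ZEB factors recruit, CTBP2 fell by 0.40 (limma adjusted p = 0.00174), with 5 of its 6 probe sets called lower, and CTBP1 differed by -0.05 (limma adjusted p = 0.346).

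The decrease of ESRP1 was read against other splicing regulators and against transcripts that ESRP proteins splice. Of 17 splicing regulators 3 rose, 6 fell and 8 were not called (median -0.03). The decreases numbered 5 with any single array left out and with the replicate block. Of the 6, PTBP1 (-0.12, limma adjusted p = 0.0387 over genes) was not called over probe sets. KHDRBS3 and RBM47 fell by 0.95 and 0.88, and PTBP2 and RBFOX2 rose by 0.52 and 0.45. The call of KHDRBS3 was lost with the floor, and that of RBFOX2 on probe sets other than _x_at and _s_at (0.12, limma adjusted p = 0.367). QKI, another regulator of mesenchymal splicing, differed by 0.10 on its brightest probe set and was not called there, while 3 of its 6 probe sets were called higher.

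Of 10 ESRP-spliced transcripts 2 rose, 3 fell and 5 were not called at the gene level. OSBPL3 fell by 1.20, SCRIB rose by 0.24 and ENAH fell by 0.22, the last not called without WZR6 replicate 1 or WZR6 replicate 2. The increases numbered 1 without parental replicate 1, parental replicate 2 or any 1 WZR6 replicate. Probe sets of the same gene disagreed: SLK, a kinase, had 1 probe set at -0.76 and another at 0.67, both called, and is uncertain as a gene. CD44, a hyaluronan receptor with variant exons, had 5 of 8 probe sets higher, with differences from -0.09 to 0.64, although its brightest differed by 0.04. FGFR2 had 2 of 10 probe sets higher, with differences from -0.03 to 0.81, and its parental means were between 4.23 and 6.89. Which exons these probe sets cover was not analysed here, so no isoform is assigned.

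Promoter letters were described for the 2 epithelial lists and for all genes. The E-box was searched as CACCTG or its reverse complement CAGGTG in the 250 bases before each RefSeq start, and 20.6% of 27305 genes held it in at least 1 such stretch. Of the genes repressed by ZEB and SNAI factors, 10 had a stretch in the table and 7 of these held the E-box. Among the 7 were CRB3, which has no measurement here, and PATJ, which was not called on its brightest probe set (0.13). The other probe set of PATJ was called lower (-0.63). Of the GRHL2-linked genes, 7 of 8 held the E-box. The first list names known targets of these repressors and the second overlaps with them in function, so these shares are a description. The grainyhead letters AACCGGTT, a palindrome, were in 0.143% of genes and in 0 of either list. At so low a share, lists this short would rarely hold a match, so the search cannot tell whether these genes carry grainyhead sites. The match nearest to a start is shown for each gene of both lists that fell at least 2-fold and had a match, with up to 10 bases on each side and the E-box in capitals (RefSeq, GRCh38.p14, 5′ to 3′ on the gene's strand).

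MUC1 (chr1:155192975-155193000, minus strand): tgtcacctgtCACCTGctccggctgt
OCLN (chr5:69492504-69492529, plus strand): atccgagtttCAGGTGaattggtcac
DSP (chr6:7541576-7541601, plus strand): agaaaccggcCAGGTGtggcctaggc
CLDN7 (chr17:7262479-7262497, minus strand): aggtgcgcccCACCTGtcc
S100A14 (chr1:153616326-153616349, minus strand): gagctgagctCAGGTGagctggct
RAB25 (chr1:156061109-156061134, plus strand): tctctccaccCACCTGggccccaggt
CDS1 (chr4:84583090-84583115, plus strand): tggagacgcgCACCTGgcaaccggag
MAPK13 (chr6:36130422-36130447, plus strand): ggcgagccggCAGGTGggagcgtagc
TMEM30B (chr14:61281358-61281383, minus strand): gggtgcagcgCACCTGggcggaggcg
SPINT1 (chr15:40844441-40844466, plus strand): ccgggctgatCAGGTGtgtctcctcc
AP1M2 (chr19:10587313-10587337, minus strand): cctgggctctCACCTGggcgcaggc

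CLDN7 held 4 matches in 1 stretch, TMEM30B, MAPK13 and AP1M2 3 each, and MUC1 a pair 7 bases apart. Over all measured genes with a promoter stretch, the E-box was present in 34.8% of the 310 genes that fell at least 2-fold. It was present in 21.8% of those that fell less, 21.3% of those not called, 18.2% of those that rose less than 2-fold and 21.1% of the 128 that rose at least 2-fold. Another E-box, CAGCTG, was present in 17.4% of the genes that fell at least 2-fold and in 18.7% of those not called. The median GC content of these 2 groups of promoters was 62.8% and 62.0%, and the number of starts per gene averaged 1.55 and 1.44. No test was made of these shares. The 310 genes include those whose matches are printed above, and what lies behind the differences in share was not tested.

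**Figure D4:**
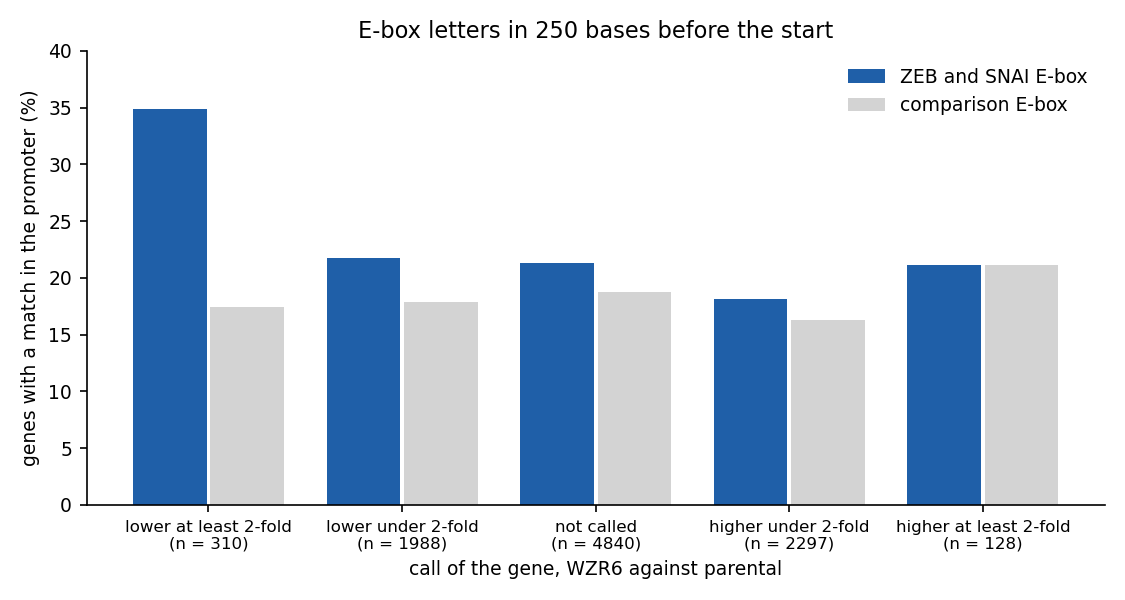
Percentage of genes with a match in the 250 bases before a RefSeq start, by the call of the gene in WZR6 against parental cells; blue bars are the ZEB and SNAI E-box and grey bars the comparison E-box, with the number of genes below each pair. The blue bar is 34.8% for genes that fell at least 2-fold and between 18.2% and 21.8% elsewhere.

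The difference of each regulator was set beside those of its neighbouring genes on the chromosome. A rank among neighbours largely follows the size of the difference. ESRP1, GRHL2 and OVOL2 (brighter probe set) lay at percentiles 0.04, 0.38 and 0.45 of the differences of all probe sets. ZEB2 and SNAI2 lay at percentiles 99.2 and 98.9. For each regulator the 10 nearest measured genes on each side were taken, from RefSeq gene order. ESRP1, GRHL2 and OVOL2 were lower than all 20 of their neighbours, whose medians were -0.11, -0.11 and 0.12. For OVOL2 this holds for its brighter probe set only. Its other probe set, at -0.18 and not called, lay above the neighbour FLRT3 at -1.98, so the rank of OVOL2 is uncertain. ESRP1 and GRHL2 lie on the same chromosome with 29 measured genes between them, of which 13 fell and 5 rose, with a median of -0.12. ZEB2 and SNAI2 were higher than all 20 of theirs, with medians of -0.03 and 0.15, although 10 of the 20 neighbours of SNAI2 were also called higher and PRKDC reached 0.96. ZEB1 ranked below 3 of its neighbours and ELF3 above 2. TWIST1, at -0.01, stood among neighbours of which 14 of 20 fell, with a median of -0.60. Its probe set lay below the lower quartile in every array, so a decrease of TWIST1 would not be seen.

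**Figure D5:**
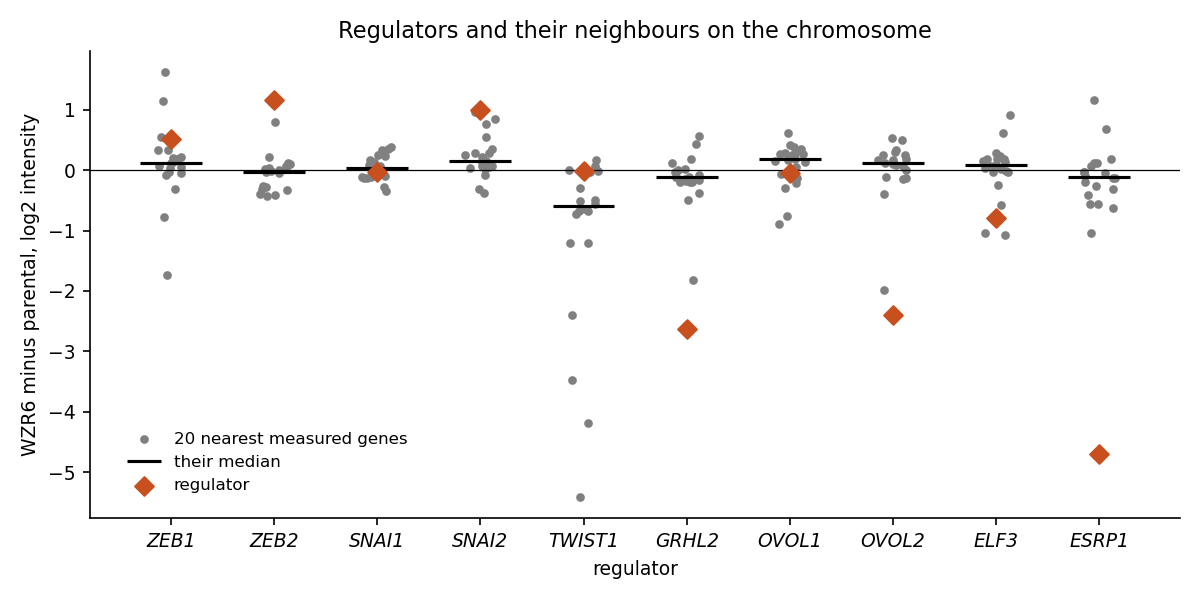
Difference of WZR6 from parental cells in log2 intensity for each regulator (diamond), its 20 nearest measured genes (grey points) and their median (black bar). Each gene is drawn by its brightest probe set. ESRP1, GRHL2 and OVOL2 lie below all their neighbours, OVOL2 on 1 of its 2 probe sets only, and ZEB2 and SNAI2 above all of theirs.

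The genes whose profile over the 6 arrays came closest to a regulator were found by Euclidean distance after each gene was centred on its parental mean, for the 5 regulators called with at least a 2-fold difference. With 2 groups this distance mostly follows the size of the difference. ESRP1 was closest to TCN1 (distance 0.57), PCOLCE2 (0.63) and BCL2A1 (0.91), against a median distance of 8.20 over all genes. GRHL2 was closest to ENTPD3 (0.43), CST6 (0.44) and MT1E (0.45), and OVOL2 to TFPI2 (0.20), MLPH (0.26) and RNF144A (0.28). SNAI2 was closest to SRSF4 (0.06), TLR3 (0.07) and P3H2 (0.07), and ZEB2, with its wider spread, to EVI5 (0.35), SDC2 (0.50) and LOC730101 (0.53).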

How the data were processed

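The submitters' processing notes name RMA, without version or settings. The deposited table holds 1 linear intensity per probe set and array, and these intensities were converted to log2 without a pseudocount. Of 22277 probe sets, 62 controls were left out. Names came from probe sets annotated to 1 gene (19064), and 11954 of 11963 genes matched RefSeq (GRCh38.p14) by Entrez identifier. WZR6 and parental arrays, grouped by title, were compared with limma 3.58.1 in R 4.3.3 (lmFit, eBayes, two-sided, Benjamini-Hochberg), over probe sets and over genes. The fit was also run on simulated data with independent noise and far fewer changed probe sets than were called here, so that run does not check these calls. The members, lists and rules were chosen with earlier results of these data known. Named from each list were up to 4 called genes with the largest differences and no overlap between groups, and others were named after their values were seen. Alternatives covered normalization, dim values, variance, probe set choice, replicate block and single arrays left out. Promoter stretches were read from the RefSeq table. The number of arrays limits precision. Figures used matplotlib 3.10.9 in Python 3.11.15.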

Additional observations from a re-analysis of the deposited data

How the results depend on the processing

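Of 180 member probe set values under alternatives, 175 kept their side of the threshold. Of SNAI1 and TWIST1, 7 values changed sign, none called. The median floor ended the calls of ZEB1 210875_s_at, ZEB2 and OVOL2 211778_s_at, leaving 3 member probe sets higher, because values below it become equal. Over single arrays left out, member probe sets higher numbered 4 to 5 and lower 5 to 6. Whether array numbers pair the samples could not be settled with 3 arrays per group. Same-numbered deviations correlated at -0.01, 0.12 and 0.23, and deviations of other numbers at -0.24 to 0.13. The arrays numbered 3 correlated best with each other, while parental array 1 correlated best with another number. With the replicate block 4770 probe sets were higher and 4259 lower, against 4807 and 4324. Among members and genes named by the list rule, KLF8 alone lost its call.

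Leaving out _x_at and _s_at probe sets, with fewer genes tested, gave 1795 genes higher and 1692 lower, against 2932 and 2816. There, epithelial factors were 1 higher and 2 lower, mesenchymal factors 2 lower, co-repressors 3 and 3, repressed epithelial genes 0 and 7, mesenchymal genes 1 lower, splicing regulators 1 lower, and ESRP-spliced transcripts 1 and 1. Mesenchymal factors higher numbered 2 under median centring, quantile normalization and the dim filter and 3 with mean probe sets, and lower 2 under median centring. Repressed epithelial genes higher were 0 under cyclic loess and the floor, and 2 under median centring. Splicing regulators higher were 5 under median centring and under the trend and robust variance, and 7 with mean probe sets. ESRP-spliced transcripts higher were 1 under cyclic loess and 4 with mean probe sets. The cause was not tested.

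Over single arrays left out, epithelial factors lower ranged from 4 to 7, mesenchymal factors higher from 1 to 3 and lower from 2 to 5, repressed epithelial genes higher from 0 to 1, and ESRP-spliced transcripts higher from 1 to 2 and lower from 2 to 3.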
